A study of Rattus with 26 samples.

Results

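The genes described here build and cross-link the extracellular matrix: collagens, laminins, the lysyl oxidase-like enzymes and 3 matrix glycoproteins, measured in the hippocampus of young and aged rats given insulin aspart or saline. A gene was included if its symbol in the annotation of the array was Col, Lama, Lamb, Lamc or Loxl followed by a number, or Lox, Nid1, Nid2, Hspg2, Fn1 or Agrn. The rule found 33 of the 15037 named genes: 20 collagens, 6 laminin chains, 4 lysyl oxidase-like genes, and Nid2, Fn1 and Agrn. Each of the 33 genes was measured by 1 transcript cluster, the set of probes that gives 1 value for a gene. A list of the wider family held 67 genes, of which 34 were not matched, among them Col4a2, Col6a1, Col25a1, Lama2, Lama4, Lamb1, Lox, Nid1 and Hspg2. These 34 are not analysed here.

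In the brain, fibrillar collagens and the proteins of basement membranes lie mainly at its borders and around vessels. Laminins and type IV collagen form the sheets of the basement membrane around vessels and under the pia, nidogens and heparan sulfate proteoglycans such as agrin tie these sheets together, and fibroblasts of the meninges, choroid plexus and larger vessels lay down fibrils of collagen I and III. Lysyl oxidases are copper-dependent enzymes that oxidise lysines of collagen and elastin, from which the covalent cross-links of the fibres form.

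Right hippocampi were taken from 26 male F344 rats and their RNA was hybridised to rat Clariom S arrays, 1 array per animal. The young saline group (6 animals) and the young aspart group (5 animals) were 2 months old when dosing began and 5 months old at the end. The aged saline group (8 animals) and the aged aspart group (7 animals) were 18 and 21 months old at those times. Each animal received saline or insulin aspart, a rapid-acting insulin analog, through the nose daily for 3 months, and all groups had been trained in a water maze before tissue was taken. The design crosses age with treatment and so asks what age changes, what aspart changes, and whether aspart acts differently in young and aged animals.

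Values are the deposited log2 expression values, and a change is a difference between group means on that scale. A gene was tested if 5 or more arrays gave a value over 5.06, which is the 30th percentile of all values; 11475 genes met this. Array medians lay between 6.64 and 6.72 and RNA integrity numbers between 6.5 and 7.8. Of 12 marker genes listed for hippocampal neurons 9 were matched, and 7 of these lay above the filter on all 26 arrays. The hippocampus was taken whole, so fewer cells of a type and less RNA per cell cannot be told apart in any result below. The number of arrays limits the precision: the median 95% interval of a family member extended 0.25 to each side of a mean effect, 0.33 for the aspart effect in aged and 0.38 in young animals, and 0.34 for the age effect under saline.

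The filter kept 24 of the 33 genes. All 8 fibrillar collagens passed it, as did Fn1, Agrn, Nid2, both laminin gamma chains, and Loxl1, Loxl3 and Loxl4. In all, 12 members lay above the filter on every array, among them Col1a1, Col1a2, Col5a1, Col18a1, Lamc1, Lamb2, Fn1, Agrn and Loxl1. The 9 genes not tested were Col4a4, Col8a1, Col13a1, Col14a1, Col15a1, Col26a1, Lama5, Lamb3 and Loxl2. Of these, 8 lay below the filter on all 26 arrays and Col8a1 was above it on 1 array. Lamc3 lay above the filter on 6 arrays and Col4a1, the main chain of the basement membrane collagen network, on 11, so their changes rest on values near the background.

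The arrays of young saline animal 5 and of young aspart animal 3 stood above all others in several sets of markers. These were markers of choroid plexus, meningeal fibroblasts, mural cells and endothelium. The mean of 13 choroid plexus epithelium markers was 8.97 and 7.93 on these arrays, against 4.69 to 5.34 on the other 9 young arrays and 4.54 to 5.94 on the 15 aged arrays. Of those 13 markers, 2 lay above the filter on all arrays and 1 below it on all. The mean of 15 meningeal fibroblast markers, none of them a family member, was 9.05 and 8.45 on the same pair of arrays. Mural cell markers had a mean of 7.38 and 7.44 on these arrays, against 6.68 ± 0.03 (SD, n = 5) in the other young saline and 6.55 ± 0.13 (SD, n = 4) in the other young aspart animals. Endothelial markers had a mean of 8.45 and 8.57, against 7.91 ± 0.10 (SD, n = 5) and 7.75 ± 0.16 (SD, n = 4). Ependymal markers had a mean of 5.27 and 5.24 on these arrays, below the 5.41 of young saline animal 6. Both choroid-rich arrays, of young saline animal 5 and young aspart animal 3, belong to the young groups. The mean effects of age of the members named below are thus given with and without them.

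Col1a2 and Fn1 had the largest differences of all members between these arrays and the rest of the group. Col1a2, the alpha 2 chain of collagen I, measured 9.32 in young saline animal 5 against 6.68 ± 0.33 (SD, n = 5) in the other young saline animals, a difference of 2.64 or 6.22-fold. In young aspart animal 3 it measured 9.07 against 6.62 ± 0.29 (SD, n = 4), a difference of 2.45. Fn1, which encodes fibronectin, the adhesive glycoprotein that cells use to assemble fibrils, was higher by 1.79 and 1.69 on the same arrays. These 2 genes were the members more than 1 above the rest of the group on both arrays. Col3a1, the chain of collagen III, was higher by 0.99 and 1.34, and Col1a1 by 0.61 and 1.08.

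For other members the difference was unequal on the pair. Nid2, which links laminin to collagen IV, was higher by 1.33 in young saline animal 5 and by 0.28 in young aspart animal 3. Lama1, the laminin alpha 1 chain of the pial basement membrane, was higher by 1.14 and 0.00, and Col8a1, an untested short-chain network collagen, by 1.67 and 0.66. Loxl1 and Lamb2 were higher by 0.65 and 0.57 in young saline animal 5, while Agrn was 0.45 lower there and 0.64 higher in young aspart animal 3. The family as a whole was not shifted to the same degree: the median difference over the 24 tested members was 0.21 in young saline animal 5 and 0.00 in young aspart animal 3, against 0.01 and 0.02 over all genes tested. Young saline animal 5 was the highest of its group in 11 of the 24 members (17.5% of all genes) and more than 1 above the rest in 4 (1.28% of all genes). Young aspart animal 3 was the highest of its group in 7 of the 24 (19.1% of all genes) and more than 1 above the rest in 4 (0.959% of all genes).

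**Figure D1:**
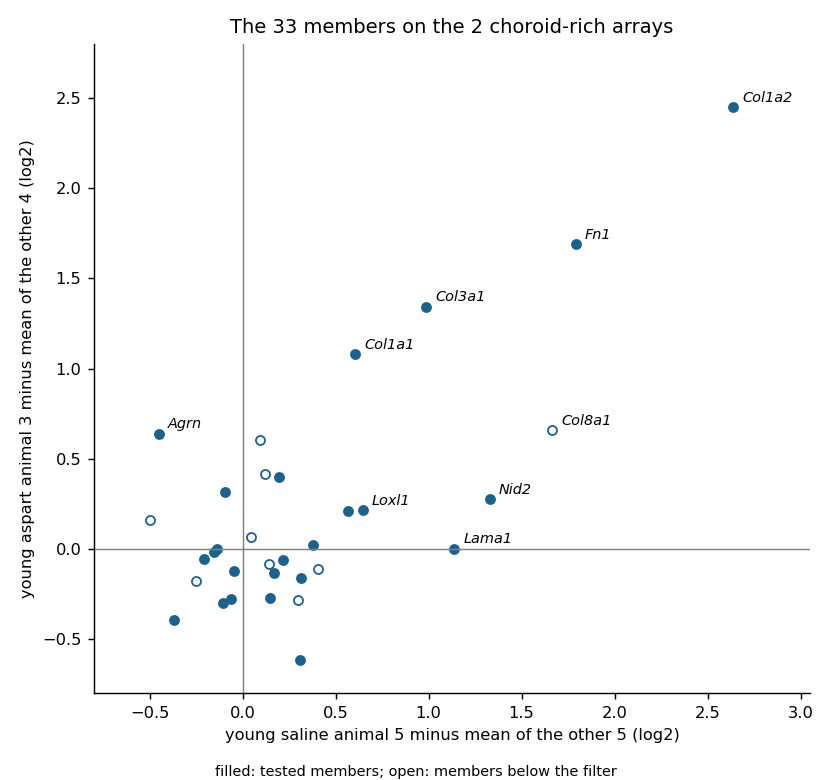
Difference of the value on each choroid-rich array from the mean of the rest of its group, in log2 units, for the 33 family members (young saline animal 5 on the horizontal axis, young aspart animal 3 on the vertical axis). Filled points are the 24 tested members and open points the 9 below the filter; Col1a2 (2.64 and 2.45) and Fn1 (1.79 and 1.69) lie far from 0 on both axes, while Nid2 and Lama1 lie far along the horizontal axis only.

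With age, averaged over saline and aspart animals, 1 member was called: Col1a1, the alpha 1 chain of collagen I, fell. Col1a2 and Col3a1 had changes below 0 as well, Col11a2 and Lamc3 had the largest changes above 0, and none of these passed. limma, with Benjamini-Hochberg adjustment over all genes tested and a threshold of 0.05, called 1 of the 24 members for the mean effect of age (0.776% of all genes were called), and the share of all genes called lower was 0.166%. An unadjusted p under 0.05 was found for 3 of 24 members (9.86% of all genes). Of the 24 members 16 were lower in aged animals (51.9% of all genes), and 14 were without the 2 choroid-rich arrays (51.2%). In that fit 0 members were called (0.706% of all genes). The median change of the members was -0.03, and that of all genes -0.01.

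Col1a1 measured 5.84, 6.00 and 6.90 as lowest, median and highest of the young saline animals, with a mean of 6.23 ± 0.46 (SD, n = 6). The young aspart animals measured 6.09, 6.09, 7.10, 6.27 and 5.61, with a mean of 6.23 ± 0.54 (SD, n = 5). The aged saline animals ran from 5.28 through a median of 5.53 to 6.37, with a mean of 5.63 ± 0.35 (SD, n = 8), and the aged aspart animals from 5.35 through 5.52 to 5.83, with a mean of 5.56 ± 0.15 (SD, n = 7). The groups overlapped: 6 of 8 aged saline animals lay below every young saline animal, and 5 of 7 aged aspart animals below every young aspart animal.

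The mean effect of age on Col1a1 was -0.64 ± 0.14 (SE), 1.55-fold lower, with a 95% interval from -0.92 to -0.35 (limma, adjusted p = 0.0149). The change was -0.60 ± 0.19 in saline animals (adjusted p = 0.342) and -0.67 ± 0.21 in aspart animals (adjusted p = 0.476). Without the 2 choroid-rich arrays it was -0.48 ± 0.13 and the call was lost (limma, adjusted p = 0.0972). Col1a1 shares its place on the chromosome with Sgca in the RefSeq gene table, and Sgca, a sarcoglycan of muscle, stood at 0.06 ± 0.12.

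The call of Col1a1 was also lost in other fits: with the choroid plexus marker mean as a covariate (-0.52, adjusted p = 0.0706), with the meningeal marker mean as a covariate (-0.44, adjusted p = 0.201), without moderation of the variance (-0.64, adjusted p = 0.0537), with the replicate number as a block (-0.59, adjusted p = 0.0576) and without young aspart animal 3 (-0.53, adjusted p = 0.0522). Young saline animal 1 had the highest Col1a1 of its group, at 6.90, and without it and both choroid-rich arrays the change was -0.38 (adjusted p = 0.231). In each of these fits Col1a1 stayed lower in aged animals.

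Markers of meningeal fibroblasts were lower in aged animals as well. Of the 12 such markers tested, 11 were lower (51.9% of all genes), with a median change of -0.77, and of -0.26 without the 2 choroid-rich arrays. Their mean level was 6.85 ± 1.08 (SD, n = 6) in young saline, 6.74 ± 0.96 (SD, n = 5) in young aspart, 6.16 ± 0.08 (SD, n = 8) in aged saline and 6.24 ± 0.11 (SD, n = 7) in aged aspart animals. Without the 2 arrays the young groups stood at 6.41 ± 0.09 (SD, n = 5) and 6.32 ± 0.15 (SD, n = 4). Over the remaining 24 arrays, with group means removed, the relation of Col1a1 to this marker mean did not pass (r = -0.03, permutation p = 0.906; rho = -0.07, permutation p = 0.757; r = -0.12 without the 2 arrays farthest from the median). Choroid plexus markers were lower too, in 6 of 6 tested, with a median of -0.73, and of -0.06 without the 2 arrays. Of the mural cell markers 6 of 9 were lower, with a median of -0.14, and of 0.02 without the 2 arrays. Endothelial markers were lower in 5 of 12, with medians of 0.03 and 0.12. The part of fibroblast, choroid plexus, mural or endothelial content in the change of Col1a1 was not tested.

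Col1a2 was as far below 0 as Col1a1 in the mean effect of age, at -0.64 ± 0.26 (limma, adjusted p = 0.356), and stood at -0.17 without the choroid-rich arrays. Its groups ran from 6.30 through a median of 6.69 to 9.32 in young saline, and from 6.00 through 6.59 to 6.93 in aged saline animals. The young aspart animals measured 6.36, 6.85, 9.07, 6.89 and 6.38, and the aged aspart animals ran from 5.87 through 6.33 to 7.07. Apart from the 2 choroid-rich arrays the highest young value was 7.18, and the ranges of young and aged animals overlapped.

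Col3a1 stood at -0.29 ± 0.15 (limma, adjusted p = 0.518), and at -0.07 without the 2 arrays. For Nid2 the mean effect was -0.24 and for Lama1 -0.24, and without the 2 arrays -0.10 and -0.14. For Fn1 the mean effect of age was above 0 in both fits, at 0.12 ± 0.20 with these arrays (limma, adjusted p = 0.909) and 0.44 without them (limma, adjusted p = 0.262). Fn1 measured 6.99, 7.78 and 9.38 as lowest, median and highest of the young saline and 7.13, 8.01 and 8.36 of the aged saline animals. Its young aspart values were 7.60, 7.60, 9.22, 7.16 and 7.78, and the aged aspart animals ran from 7.50 through 7.94 to 8.86, so the groups overlapped.

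**Figure D2:**
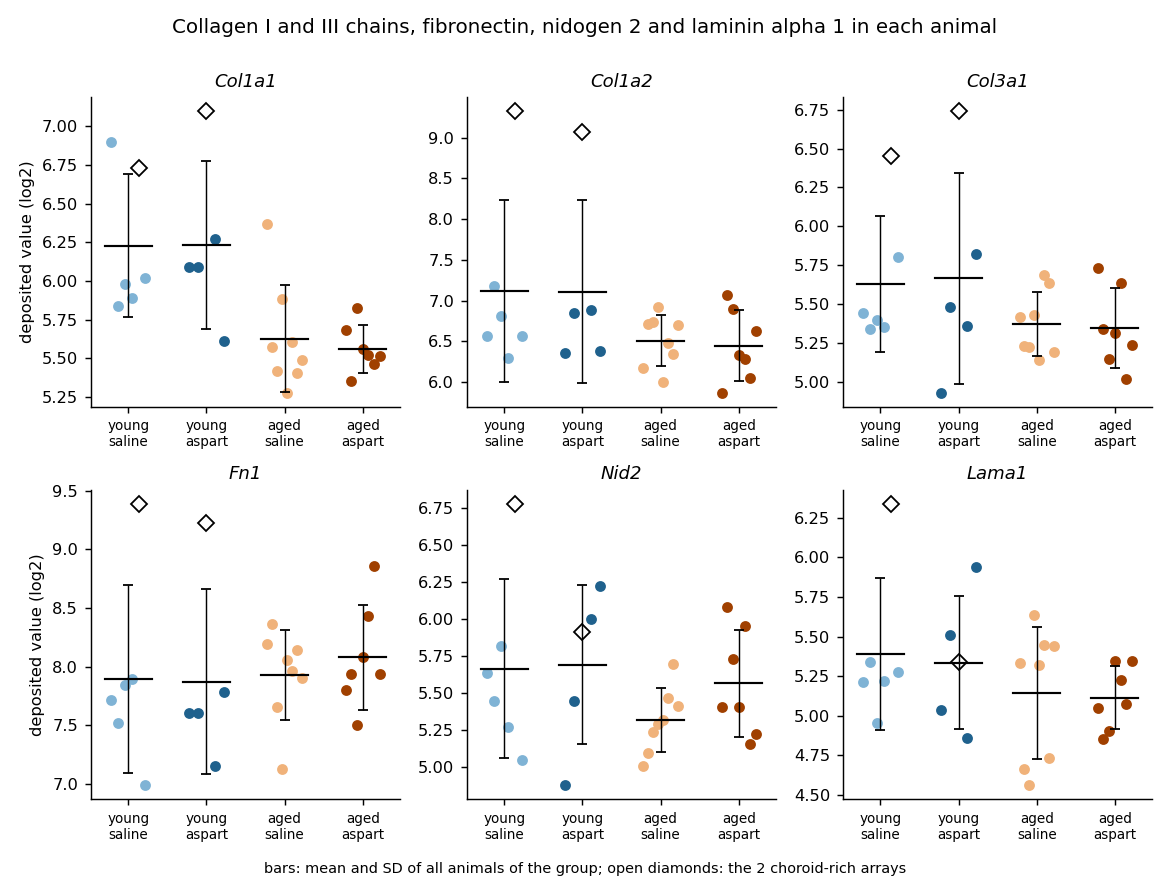
Deposited log2 value of Col1a1, Col1a2, Col3a1, Fn1, Nid2 and Lama1 in each animal of the 4 groups, with the group mean and SD; the choroid-rich animals are marked. Those animals carry the highest young values of Col1a2 (9.32 and 9.07) and Fn1 (9.38 and 9.22). For Col1a1 the highest young value is 7.10 in choroid-rich young aspart animal 3. It is followed by 6.90 in young saline animal 1 and 6.73 in choroid-rich young saline animal 5.

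The other fibrillar collagens did not pass in any comparison with age. Col11a2, a chain of collagen XI, which nucleates thin fibrils, had a mean effect of age of 0.29 ± 0.12 (limma, adjusted p = 0.381), and of 0.22 without the 2 choroid-rich arrays. It ran from 6.28 through 6.57 to 6.98 in young saline and from 6.41 through 6.89 to 7.69 in aged saline animals, where aged saline animal 6 lay far above the others. Col5a1, a chain of collagen V that sets fibril diameter, stood at -0.03 ± 0.10, and Col11a1, the partner of Col11a2, at 0.00 ± 0.09, and without these arrays they stood at -0.06 and -0.02. Of the 8 fibrillar chains 6 were lower (51.9% of all genes) and 2 higher, with a median of -0.05, and of -0.07 without these arrays.

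No basement membrane gene of the family passed with age; Nid2 and Lama1 are given above. The mean effect was -0.03 ± 0.11 for Col4a1, 0.00 ± 0.10 for Lamc1, the gamma chain of most laminins, -0.07 ± 0.13 for Lamb2, the beta 2 chain of vessels and synapses, and -0.16 ± 0.12 for Agrn. Col18a1, a basement membrane collagen whose end fragment is endostatin, stood at 0.08 ± 0.10. Without the 2 choroid-rich arrays Col4a1 stood at 0.03, Lamc1 at 0.03, Lamb2 at 0.00, Agrn at -0.13 and Col18a1 at 0.07. The 95% interval was -0.25 to 0.19 for Col4a1, -0.21 to 0.21 for Lamc1 and -0.12 to 0.28 for Col18a1, and changes within these bounds are not excluded. Lamc3, the gamma 3 chain, stood at 0.22 ± 0.13, Col6a2, a chain of the beaded collagen VI filament, at 0.15 ± 0.09, and the transmembrane collagen Col23a1 at 0.13 ± 0.13; without these arrays they stood at 0.20, 0.16 and 0.15. All had an adjusted p of 0.644 or more in limma.

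**Figure D3:**
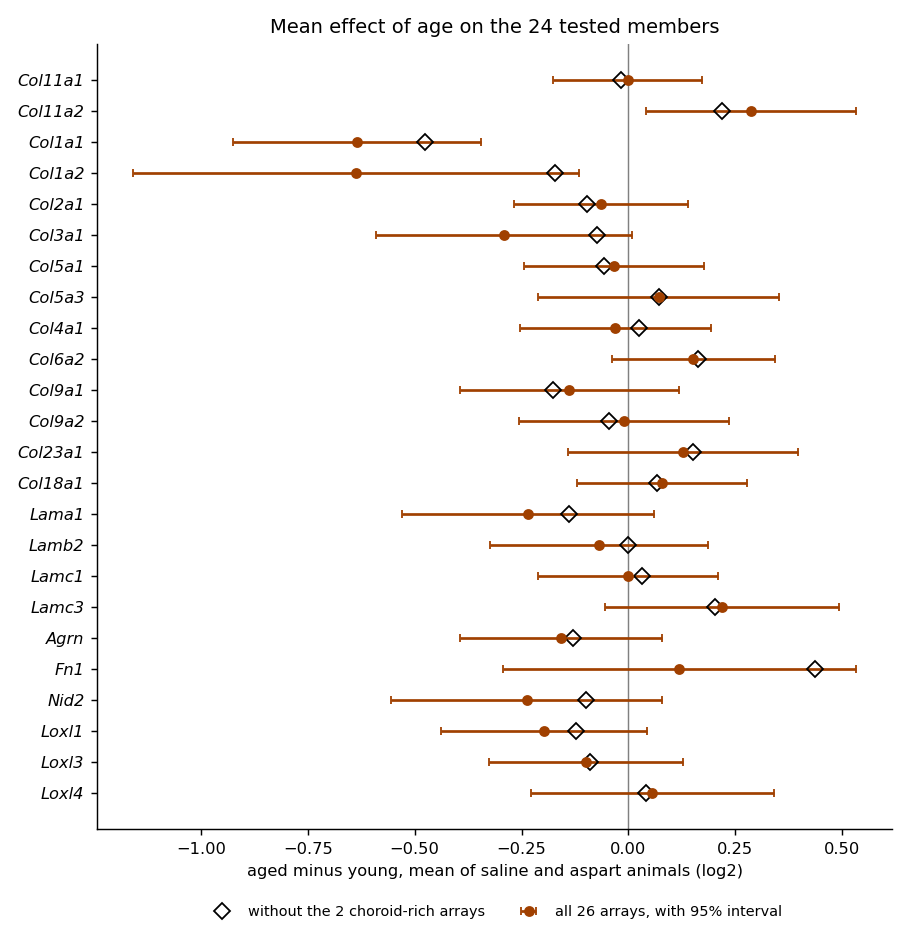
Mean effect of age (aged minus young, averaged over saline and aspart animals, log2) for the 24 tested members, as points with 95% intervals from limma for all 26 arrays and as open diamonds without the 2 choroid-rich arrays. Col1a1 stays below 0 in both (-0.64 and -0.48), Col1a2 moves from -0.64 to -0.17 and Fn1 from 0.12 to 0.44.

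Within saline animals no member was called for age (limma, 0 of 24, 0.261% of all genes), and 3 of 24 had an unadjusted p under 0.05 (6.39% of all genes): Loxl3, Col1a1 and Loxl4. The largest changes below 0 were those of Col1a2 (-0.61), Col1a1 (-0.60), Loxl3 (-0.52) and Nid2 (-0.35). Those above 0 were Loxl4 (0.39), Col11a2 (0.27), Col6a2 (0.19) and Col5a3 (0.18). The median over the members was -0.08, against -0.01 over all genes. Without the 2 choroid-rich arrays 0 members were called (limma, 0.218% of all genes), Col1a2 stood at -0.17, Nid2 at -0.13, Col1a1 at -0.50, Loxl3 at -0.46 and Loxl4 at 0.36, and the median was -0.04.

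Within aspart animals 0 of 24 members were called for age (limma, 0.0523% of all genes), and 1, Col1a1, had an unadjusted p under 0.05 (5.59% of all genes). Col1a1 (-0.67), Col1a2 (-0.66), Col3a1 (-0.32) and Loxl4 (-0.28) had the largest changes below 0, and Lamc3 (0.33), Loxl3 (0.32), Col11a2 (0.30) and Col23a1 (0.26) those above 0. The median was -0.01 over the members and 0.00 over all genes. Without the 2 arrays 0 members were called (limma, 0.0349% of all genes), Col1a1 stood at -0.45, Col1a2 at -0.17, Col3a1 at -0.05, Loxl3 at 0.29 and Fn1 at 0.54 (limma, adjusted p = 0.841), and the median was -0.03. For 0 of the 24 members were young and aged animals fully apart, in saline or in aspart animals (0.392% of all genes in each).

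The largest difference with aspart among the members was that of Loxl3, a lysyl oxidase-like enzyme, in aged animals. Loxl3 had the smallest p of all 11475 genes in that comparison, but did not pass after adjustment, as no gene did. It measured 4.46, 4.97 and 5.49 as lowest, median and highest of the aged saline animals, with a mean of 4.96 ± 0.31 (SD, n = 8). The aged aspart animals ran from 5.14 through a median of 5.65 to 6.02, with a mean of 5.66 ± 0.27 (SD, n = 7). All 7 aged aspart animals lay above the aged saline mean and 6 of 7 above every aged saline animal, so the groups overlapped through aged aspart animal 3 and aged saline animals 2 and 8.

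The change of Loxl3 was 0.70 ± 0.15 (SE), 1.62-fold higher, with a 95% interval from 0.40 to 0.99 (limma, adjusted p = 0.329). Without the 2 choroid-rich arrays, which belong to neither group, the adjusted p was 0.409. Over the alternatives the change lay between 0.63 and 0.79 and the adjusted p between 0.0565 and 0.9999. In aged saline animals 4 of 8 values lay above the filter, in aged aspart animals 7 of 7. Loxl3 overlaps Htra2, a mitochondrial protease gene, in the RefSeq gene table, and Htra2 stood at 0.38 ± 0.16 in the same comparison (limma, adjusted p = 0.911). Whether probes of Loxl3 also measure RNA of Htra2 was not tested. Erythrocyte markers had a mean level of 5.93 ± 0.79 (SD, n = 8) in aged saline and 6.94 ± 1.56 (SD, n = 7) in aged aspart animals, and meningeal markers 6.16 and 6.24; their part in the difference was not tested.

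In young animals the difference of Loxl3 with aspart was below 0. The young saline animals ran from 5.15 through a median of 5.48 to 5.74, with a mean of 5.48 ± 0.22 (SD, n = 6), and the young aspart animals measured 5.12, 5.37, 5.22, 5.62 and 5.40, with a mean of 5.35 ± 0.19 (SD, n = 5). Aspart in young animals stood at -0.13 ± 0.17 (limma, adjusted p = 0.999), and at -0.05 without the 2 choroid-rich arrays. The difference between the aspart effects in aged and young animals was 0.83 ± 0.22, the second smallest p of all genes in that comparison (limma, adjusted p = 0.9999), and did not pass; it was 0.75 without the 2 choroid-rich arrays. With age in saline animals Loxl3 stood at -0.52 ± 0.15 (limma, adjusted p = 0.262), a comparison that shares the aged saline animals with the one for aspart. The aged saline group was thus the lowest of the 4 and the aged aspart, young saline and young aspart groups lay within 0.32 of each other.

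Loxl1, which cross-links elastic fibres, was higher with aspart at both ages without passing. It ran from 6.97 through a median of 7.33 to 7.99 in young saline and measured 7.76, 7.42, 8.00, 7.99 and 7.96 in young aspart animals. In aged saline animals it ran from 6.75 through 7.32 to 7.54, and in aged aspart animals from 7.12 through 7.64 to 8.01. The change was 0.31 ± 0.15 in aged and 0.37 ± 0.18 in young animals, and the mean effect of aspart 0.34 ± 0.12 (limma, adjusted p = 0.861). Of the aged aspart animals 6 of 7 lay above the aged saline mean, and of the young aspart animals 4 of 5 above the young saline mean, with overlap at both ages.

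Loxl4, another member of the enzyme family, differed in sign between the ages. It ran from 4.53 through 4.91 to 5.45 in young saline animals and measured 5.18, 5.66, 5.34, 5.39 and 5.21 in young aspart animals, a change of 0.40 ± 0.21. In aged saline animals it ran from 4.39 through 5.43 to 6.00 and in aged aspart animals from 4.54 through 4.97 to 5.75, a change of -0.27 ± 0.18. The difference between these effects was -0.67 ± 0.28 (limma, adjusted p = 0.9999), and with age in saline animals Loxl4 stood at 0.39 ± 0.19 (limma, adjusted p = 0.776). The groups overlapped in each case. Loxl2, the fourth gene of this kind, lay below the filter throughout.

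**Figure D4:**
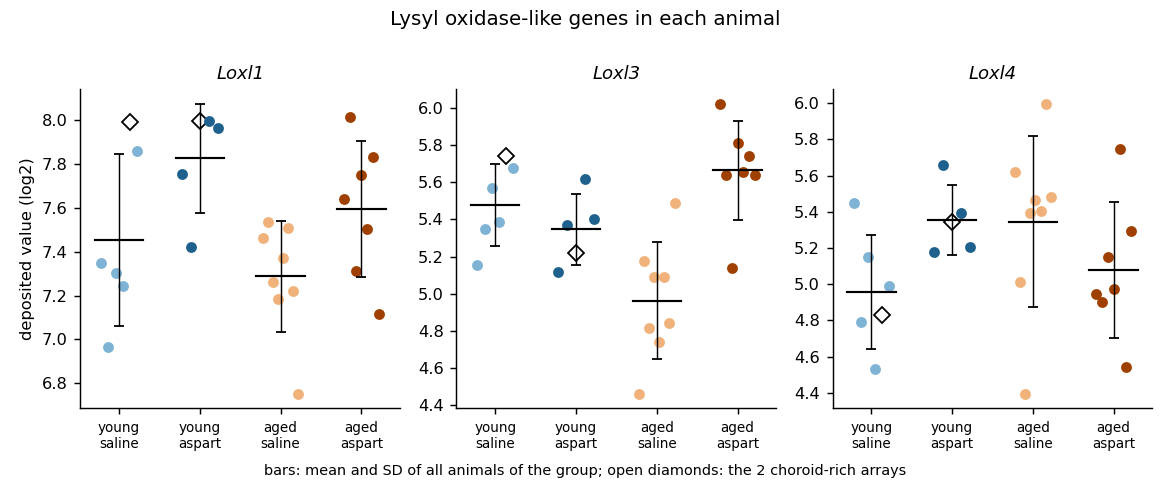
Deposited log2 value of Loxl1, Loxl3 and Loxl4 in each animal of the 4 groups, with the group mean and SD. For Loxl3 the aged saline animals (mean 4.96) lie below the aged aspart animals (mean 5.66), with overlap between 5.14 and 5.49.

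No member passed for aspart at either age. In aged animals 0 of 24 members were called by limma (0.0% of all genes), 1 of 24, Loxl3, had an unadjusted p under 0.05 (4.69% of all genes), and 12 members were higher and 12 lower (46.7% of all genes were lower). The 4 largest changes above 0 were those of Loxl3, Loxl1, Nid2 (0.25) and Lamb2 (0.18), and the 4 largest below 0 those of Loxl4 (-0.27), Agrn (-0.18), Col18a1 (-0.13) and Col11a1 (-0.09). The collagen I and III chains stood at -0.07 ± 0.19 for Col1a1, -0.06 ± 0.33 for Col1a2 and -0.02 ± 0.19 for Col3a1. For 0 of 24 members were saline and aspart animals fully apart (0.0174% of all genes in aged, 0.192% in young animals).

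In young animals 0 of 24 members were called for aspart by limma (0.0% of all genes), and 2 of 24, Col5a1 and Loxl1, had an unadjusted p under 0.05 (2.44% of all genes). Col5a1 ran from 7.89 through 8.48 to 8.80 in young saline animals and measured 7.88, 7.72, 7.94, 7.98 and 8.40 in young aspart animals, a change of -0.42 ± 0.16 (limma, adjusted p = 0.999). All 5 young aspart animals lay below the young saline mean, and without the 2 choroid-rich arrays the change was -0.45. In aged animals Col5a1 stood at 0.02 ± 0.13, and the difference between the effects was 0.44 ± 0.21 (limma, adjusted p = 0.9999). The 4 largest changes above 0 in young animals were those of Loxl4 (0.40), Loxl1 (0.37), Col9a1 (0.29) and Col5a3 (0.20), and below 0 those of Col5a1, Col2a1 (-0.26), Lamc3 (-0.22) and Agrn (-0.16). Each young group holds 1 choroid-rich array. Without these arrays the 4 largest above 0 were Loxl1 (0.44), Loxl4 (0.38), Col9a1 (0.33) and Col5a3 (0.25). Those below 0 were then Col5a1, Agrn (-0.36), Col23a1 (-0.24) and Col2a1 (-0.21), and Lamc3 stood at -0.14. For the difference between the ages, 0 of 24 members were called (limma, 0.0% of all genes) and 3 had an unadjusted p under 0.05 (1.77% of all genes). The 4 largest such differences above 0 were those of Loxl3, Col5a1, Col23a1 (0.26) and Col2a1 (0.24), and below 0 those of Loxl4, Col5a3 (-0.21), Col9a1 (-0.16) and Col11a1 (-0.14).

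Averaged over the ages, 0 of 24 members were called for aspart (limma, 0.0% of all genes), and 2 of 24, Loxl1 and Loxl3, had an unadjusted p under 0.05 (5.19% of all genes). Loxl3 stood at 0.28 ± 0.11, Col9a1 at 0.21, Col6a2 at 0.15, Col5a1 at -0.20, Agrn at -0.17, Col2a1 at -0.14 and Lamc3 at -0.11. The median over the members was 0.00, against 0.01 over all genes.

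**Figure D5:**
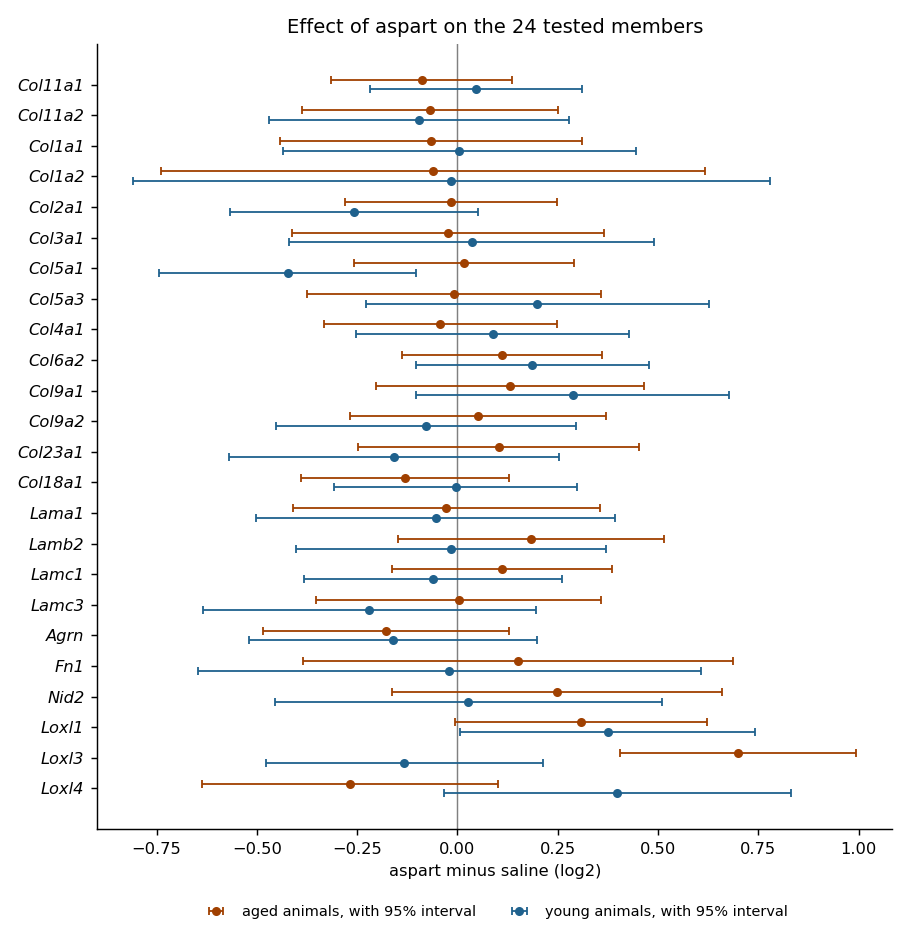
Effect of aspart (aspart minus saline, log2) on the 24 tested members in aged and in young animals, as points with 95% intervals from limma. The interval of Loxl3 in aged animals (0.40 to 0.99) lies above 0, that of Loxl3 in young animals spans 0, and no member passed after adjustment over all genes.

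Among genes that modify and fold collagen 1 of 16 was called for the mean effect of age (limma, 0.776% of all genes). P3h2, which hydroxylates prolines of basement membrane collagen, rose with the mean effect of age by 0.43 ± 0.09 (limma, adjusted p = 0.0122), and by 0.55 ± 0.13 in saline animals (adjusted p = 0.0427). Without the 2 choroid-rich arrays the mean effect was 0.43 (adjusted p = 0.0314), while that in saline animals no longer passed (adjusted p = 0.0966). Of the 16 genes of this list (collagen folding, hydroxylation and secretion) 10 were lower (51.9% of all genes) and 6 higher, with a median of -0.01. Serpinh1, the chaperone HSP47 of procollagen, stood at -0.29 ± 0.16 and Ppib, a prolyl isomerase, at -0.17 ± 0.09, and at -0.13 and -0.09 without these arrays. With aspart in young animals P3h1, a prolyl hydroxylase of fibrillar collagen, stood at -0.50 ± 0.17 (limma, adjusted p = 0.999).

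Of 13 genes tested for procollagen processing and fibril assembly, 12 were lower with age (51.9% of all genes). Of the 13 genes 0 passed (limma, 0.776% of all genes were called). Ogn, Fmod and Dcn, small leucine-rich proteoglycans that bind collagen fibrils, stood at -1.12 ± 0.43, -0.93 ± 0.37 and -0.91 ± 0.24 (limma, adjusted p = 0.320, 0.340 and 0.0578). Without the 2 choroid-rich arrays they stood at -0.28, -0.24 and -0.55. The median of the list went from -0.26 to -0.03 when these arrays were left out, with 9 of 13 genes lower (51.2% of all genes). Dcn, Lum, Ogn, Omd and Fmod also belong to the meningeal fibroblast markers used above.

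With age, 0 of 20 receptors of collagen, laminin and fibronectin and 0 of 16 genes of the TGF-beta family were called by limma, where 0.776% of all genes were, so lists of this size would hold few calls at the share of all genes. Itgb5, an integrin chain, stood at 0.35 ± 0.12 (limma, adjusted p = 0.200), Ddr1, a collagen receptor kinase, at 0.24 ± 0.17, and Smad3, which carries TGF-beta signals to the nucleus, at 0.35 ± 0.10 (limma, adjusted p = 0.0996). They stood at 0.35, 0.18 and 0.33 without the 2 choroid-rich arrays. The elastic fibre list (8 tested) and the list of other basement membrane genes (7 tested) held 0 calls, with medians of 0.00 and 0.11, and of 0.10 and 0.21 without these arrays. Smoc1, a calcium-binding matrix protein of that second list, stood at 0.32 ± 0.13 and Fbln5, which organises elastic fibres, at 0.13 ± 0.16, and at 0.38 and 0.30 without these arrays.

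Of 21 proteases and inhibitors 1 was called with age, and of 12 genes of the brain's own proteoglycan matrix 1 (limma, 0.776% of all genes). Ctss, a lysosomal cysteine protease, rose by 0.72 ± 0.10 (limma, adjusted p = 4.443e-05), and by 0.72 without the 2 choroid-rich arrays (limma, adjusted p = 0.0002066). Microglia, which express Ctss, had a marker mean of 8.22 ± 0.19 (SD, n = 6) in young saline, 8.28 ± 0.14 (SD, n = 5) in young aspart, 8.58 ± 0.22 (SD, n = 8) in aged saline and 8.65 ± 0.31 (SD, n = 7) in aged aspart animals. Of these markers 10 of 10 were higher with age, with a median of 0.36, where 51.9% of all genes were lower. The part of microglia in the rise of Ctss was not tested. Of the 21 proteases and inhibitors 11 were higher and 10 lower. Timp1, an inhibitor of metalloproteases, stood at -0.39 ± 0.18, and at -0.09 without the 2 choroid-rich arrays. Hapln2, a link protein of hyaluronan at nodes of Ranvier, rose by 0.57 ± 0.11 (limma, adjusted p = 0.00198), and by 0.55 without these arrays (limma, adjusted p = 0.00871). Oligodendrocyte markers were higher in 6 of 9, with a median of 0.10, and their part in the rise of Hapln2 was not tested. Of the 12 genes of the perineuronal net and brain proteoglycan list 8 were lower. The proteoglycan Ncan stood at -0.27 ± 0.11 and Hapln1, a link protein of perineuronal nets, at -0.26 ± 0.10, and at -0.33 and -0.28 without these arrays. With aspart in aged animals 0 genes of the 8 lists passed: Ncan stood at 0.39 ± 0.14, Efemp2, which helps lysyl oxidase reach elastin, at -0.35 ± 0.16, and Mmp2, a gelatinase, at 0.29 ± 0.14. In young animals Mmp15, a membrane-bound metalloprotease, stood at 0.58 ± 0.21 and Has2, a hyaluronan synthase, at 0.50 ± 0.22, again without passing (limma, adjusted p = 0.999).

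The members were also compared with marker genes of 14 cell types and regions over the 24 arrays without the choroid-rich ones, with group means removed. Of 336 relations 1 passed after adjustment over all of them. Lamc3 followed the mean of the oligodendrocyte markers (r = 0.74, permutation p = 0.00014, adjusted p = 0.0470; rho = 0.78, permutation p = 0.00013, adjusted p = 0.0437), and r was 0.76 without the 2 arrays farthest from the median marker level. Lamc3 lay above the filter on 6 of 26 arrays, so this relation rests mostly on values near the background. In all, 31 of the 336 relations had an unadjusted p under 0.05. Relations were worked out for the tested members only, so no share over all genes is available. Of 276 pairs of members 0 passed after adjustment and 19 had an unadjusted permutation p under 0.05. The pair with the smallest p was Col3a1 and Col5a3 (r = 0.54, permutation p = 0.0065, adjusted p = 0.480).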

How the data were processed

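The deposited table holds 1 value per transcript cluster and array. Per the submitters' processing notes and the design text, the authors used Robust Multiarray Average (RMA) to turn array intensities into 1 background-corrected, quantile-normalised log2 value per transcript. Partek is also named; tool versions were not given in the sources used here. Deposited log2 values lie between 2.18 and 19.93, and 216 clusters have means above 16, more than a 16 bit scanner gives as log2, so folds are on the table's own scale. The genome build of the array data is not given in the sources used here, and no coordinates or sequences are printed. The RefSeq gene table used for overlaps of genes is on the assembly GRCr8. Quantile normalisation can hide a shift shared by most genes.

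Of 24834 features 1646 are controls. Of 23188 clusters 15049 carried 1 gene symbol, 0 carried several and 8139 none. For the 10 genes with several clusters the brightest was kept. Groups came from the sample titles. The 4 group means were fitted together in limma 3.58.1 (R 4.3.3) with an intensity trend in the prior variance and 22 residual degrees of freedom. Tests were two-sided, with Benjamini-Hochberg adjustment over 11475 genes in each of 7 contrasts and a threshold of 0.05. Errors of changes are standard errors, spreads of groups standard deviations. Correlations used 100000 permutations within groups. The fit was tested on simulated data. With 11475 genes simulated, it recovered 46.7% of changes of 0.5 and 97.8% of changes of 1 for aspart in aged animals, and 76.5% and 99.8% for the mean effect of age. Over 10 draws, 1000 changes of each size were planted per contrast, and noise was drawn independently for each gene. False calls averaged 7.2 and 8.5 per draw. The number of true changes in the real contrasts is unknown, so these shares are not detection rates for the real data.

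The members and the gene lists were chosen with earlier results of these data known. Named members are any that passed, the 4 largest changes in each direction of each contrast, and a fixed list of chains and enzymes. From each pathway list the genes that passed and up to 3 with the largest changes were taken. The deviations of same-numbered animals had a mean correlation of 0.07 over 34 pairs (from -0.23 to 0.34), against -0.01 over 217 other pairs. Without the 2 choroid-rich arrays the means were 0.09 over 28 pairs and -0.01 over 183. Whether the numbers pair animals was not tested, and the main fit treats them as unpaired. Alternatives covered filters, variance models, array weights, covariates, normalisation, each animal and the 2 choroid-rich arrays. Combining the omission of these arrays with the meningeal covariate or with the omission of young saline animal 1, and the relations between members, were added after seeing the data. Batches were not analysed here.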

Additional observations from a re-analysis of the deposited data

Results flagged for a closer look

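Each of the 33 family members was checked in each of the 4 groups for a highest or lowest animal far from the rest, by Dixon's 95% criterion. Of these 132 checks 17 were met (12.9%), where chance meets about 1 in 20, and 5 of the 17 fell on the 2 choroid-rich arrays. Young saline animal 5 was far above its group for Col1a2 (9.32), Lama1 (6.34), Col26a1 (4.60) and Col8a1 (5.85), and young aspart animal 3 for Col1a2 (9.07).

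Single animals stood apart in other tested members. Young aspart animal 5 was far above its group for Col5a3 (5.85), and young saline animal 1 was far below its own (4.67). Young aspart animal 4 was high for Col6a2 (5.54) and aged saline animal 3 low (4.75). Aged saline animal 6 was high for Col11a2 (7.69), which touches the change of that gene with age. Aged saline animal 8 was low for Loxl1 (6.75), which touches the difference with aspart. Aged saline animal 1 was low for Col9a1 (4.71), and aged aspart animal 7 for Col18a1 (6.47).

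The remaining checks concerned genes below the filter. Col4a4 was high in young aspart animal 2 (3.60), aged saline animal 6 (3.86) and aged aspart animal 1 (3.70). Lama5 was low in aged aspart animal 6 (3.84).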

How the results depend on the processing

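For the 24 tested members, 7383 values were recomputed under 26 fits without 1 animal each, 17 other settings and 2 added ones. Of these 0 called values reversed, 8 lost a call (all Col1a1, mean effect of age) and 394 changed sign without being called in either fit. The members called for the mean effect of age went from 1 to 0 without the 2 choroid-rich arrays, with the stricter filter (which left Col1a1 untested), without moderation, with the choroid plexus or meningeal covariate, with the replicate block, and under both added settings, and lay between 0 and 1 without single animals. In the other contrasts 0 members were called under every setting run. Of all genes, the count for age in saline animals went from 30 to 15 without moderation, 46 with array weights, 48 with control separation as covariate and 7 without the 2 arrays and young saline animal 1, and lay between 15 and 36 without single animals. For age in aspart animals it went from 6 to 10 with array weights, 13 with RNA integrity, 26 with control separation, 11 with the choroid plexus covariate, 16 with the meningeal covariate, 20 with that covariate and without the 2 arrays, 10 over all clusters and 3 with the 2 groups alone, and lay between 2 and 8 without single animals. For the mean effect of age it went from 89 to 135 with array weights and 141 with control separation, to 72 without the 2 arrays and young saline animal 1, and lay between 82 and 150 without single animals, the highest without aged aspart animal 6. The replicate block changed no other call of a member. Causes of these shifts were not tested. Values near 5 lie close to background, so changes of dim members are less certain than those of brighter ones. Among the dim members are Lamc3, Col4a1, Loxl4, Lama1, Col6a2, Col5a3, Loxl3 and Col23a1.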

Other observations

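Of the 9 members below the filter, Col15a1, Loxl2 and Lama5 are given by group. Col15a1 encodes collagen XV, a basement membrane collagen, and lay below the filter on all 26 arrays, so the values describe signal near the background. It averaged 4.22 ± 0.26 (SD, n = 6) in young saline, 4.44 ± 0.09 (SD, n = 5) in young aspart, 4.54 ± 0.25 (SD, n = 8) in aged saline and 4.17 ± 0.27 (SD, n = 7) in aged aspart animals. In a fit without the filter, aspart in aged animals stood at -0.36 ± 0.13 (limma, adjusted p = 0.924) and age in saline animals at 0.32 ± 0.14 (limma, adjusted p = 0.798). Col15a1 was chosen after its values were seen. Loxl2 and Lama5 are on the fixed list of chains and enzymes, and the lists were chosen with earlier results of these data known. Loxl2 averaged 4.38 ± 0.24 (SD, n = 6), 4.57 ± 0.38 (SD, n = 5), 4.35 ± 0.35 (SD, n = 8) and 4.27 ± 0.22 (SD, n = 7) in the same groups, and Lama5, the laminin alpha 5 chain of adult basement membranes, 4.59 ± 0.27, 4.35 ± 0.30, 4.55 ± 0.43 and 4.50 ± 0.32.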
